A study of Mus musculus with 28 samples.

Results

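Liver organoids grown in expansion medium (EM) were compared with bile duct cells taken fresh from the liver across all genes of a 2-colour array. The comparison takes 4 of the 28 arrays of the series, 2 of EM organoids and 2 of sorted duct cells, as named by their labels. Both groups come from mice of the C57BL/6 strain, and the labels give no age and name no transgene or treatment for these arrays. The organoids were started from single cells sorted for Lgr5 and then expanded in culture, per the growth protocol, so each EM sample is a cultured line of selected cells. The duct cells were sorted with the MIC1-1c3 antibody, which binds a surface antigen of bile duct cells, and their labels name no culture. The other 24 arrays (a single DM organoid, liver, hepatocytes, Lgr5-sorted cells, injured liver, pancreas, muscle and fat) entered only the estimate of the spread and the levels given for context. Each array carried cRNA of a sample in Cy3 beside a commercial mouse reference RNA in Cy5. Levels are log2 ratios of sample to reference, and changes are EM organoids minus duct cells on that scale ± the standard error. Each group had n = 2 arrays, except where an outlier spot was left out.

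Bile ducts are lined by cholangiocytes, epithelial cells that modify bile and that carry keratins 7 and 19, the adhesion protein Epcam and the transcription factor Sox9. After liver damage some of these cells, or cells near them, proliferate and switch on Lgr5, a receptor for the R-spondins that strengthen Wnt signalling. Organoid media supply R-spondin and growth factors to keep such cells dividing. A sort for a surface antigen enriches ducts but can carry along cells that lie against them, such as fibroblasts, stellate cells, endothelium and macrophages.

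In the sample channel, 53.8% and 31.4% of probes were well above background on the EM arrays, and 57.8% and 39.6% on the duct arrays, so replicate 2 was the dimmer array in both groups. Across genes the log2 ratios correlated at 0.90 between the EM arrays, at 0.86 between the duct arrays and at 0.20 to 0.31 between arrays of different groups. No slide and no scan day held arrays of both groups, so slide, scan day and group cannot be told apart. The labels call the arrays biological replicates without saying whether they came from separate animals or cultures, so p-values measure differences against the spread between arrays. That spread was pooled over the 28 arrays of 13 groups, so the SE of a gene need not match its spread on these 4 arrays. For Il6 the SD of the duct arrays was 1.77, beside an SE of 0.58 for the change. Array weights, lower for noisier arrays, were 0.43 for EM and 0.72 for duct arrays. The Y-linked genes Ddx3y and Eif2s3y were well above background on none of the 4 arrays.

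Both groups carried the genes that define bile duct epithelium, and Krt19, Sox9 and Spp1 did not differ beyond the spread between arrays. Krt19, a keratin of cholangiocytes (probe on chromosome 11, 100002392 to 100002451, mm9), read 3.45 and 3.11 in EM organoids and 3.72 and 2.30 in duct cells. The arrays of the groups overlapped, and the change was 0.27 ± 0.52 (adjusted p = 0.739). Without duct replicate 2 it was -0.44, and on the Cy3 signal alone it was 1.82 and was called. Sox9, a transcription factor of the ducts (chromosome 11, 112647008 to 112647067), read 2.27 and 2.36 against 2.30 and 2.10, a change of 0.11 ± 0.27 (adjusted p = 0.786) whose sign turned under other background and normalization settings. Krt7 read 2.51 and 3.69 against 2.39 and 2.38 (0.71 ± 0.35, adjusted p = 0.119), not called here but called with the median of its probes (2.12), on Cy3 alone (4.23), between quantile-normalized arrays (1.07) and without EM replicate 1 (1.30). Spp1, the secreted phosphoprotein osteopontin, read 0.28 and 0.33 against 0.59 and 1.08 (-0.53 ± 0.54, adjusted p = 0.485). A p that misses the threshold does not show equal levels. For comparison, Krt19 stood at -3.60 ± 0.01 (SD, n = 2) in adult liver and -2.30 ± 0.52 (SD, n = 2) in hepatocytes.

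**Figure D1:**
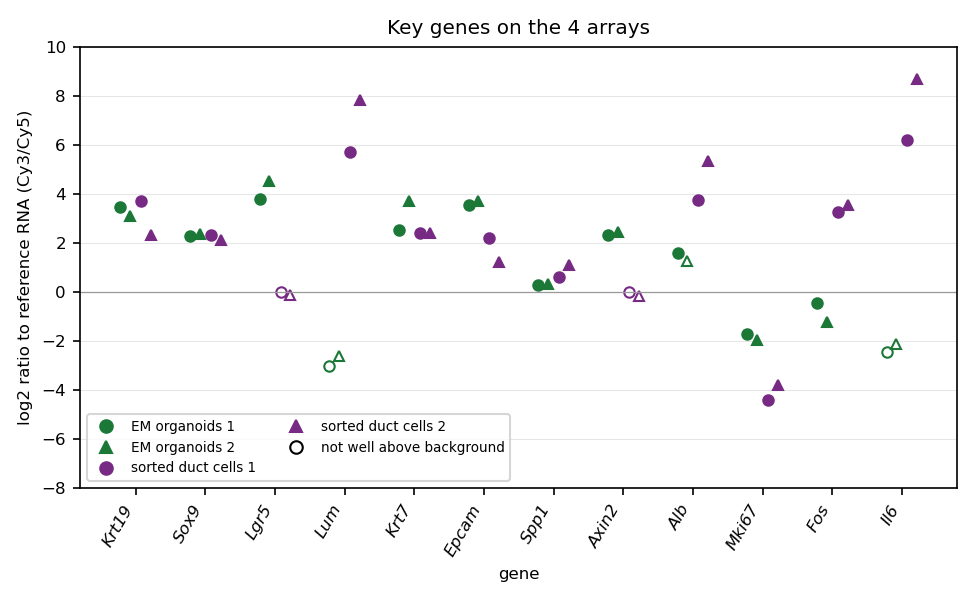
Log2 ratio to the reference RNA (y axis) of 12 key genes (x axis) on each of the 4 arrays, green for EM organoids and purple for sorted duct cells, circles for replicate 1 and triangles for replicate 2, open where the signal was not well above background. Krt19, Sox9 and Spp1 lie together in both groups, Lgr5 and Axin2 are open in duct cells, and Lum and Il6 are open in EM organoids.

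Other duct genes were not level. Of 27 biliary genes tested, 11 rose and 2 fell in EM organoids, where 12.6% of all genes tested were called higher and 14.0% lower. These shares of all genes are the background for the counts of every list below. Prom1, the membrane glycoprotein CD133, read 6.72 and 6.65 in EM organoids and 1.61 and 1.47 in duct cells, a rise of 5.14 ± 0.46 (adjusted p = 4.15e-08) that was not called on Agilent's own log ratio (2.03). Epcam read 3.54 and 3.70 against 2.18 and 1.23 and rose by 1.92 ± 0.51 (adjusted p = 0.00464), a call lost without duct replicate 2 (1.44). The 2 genes that fell were Aqp1, a water channel of cholangiocytes and endothelium, and the annexin Anxa13. Aqp1 read -1.77 and -2.01 in EM organoids against 3.00 and 4.33 in duct cells, a fall of 5.56 on the log2 scale (SE 0.86, adjusted p = 3.47e-05). Anxa13 read 2.57 and 2.87 against 4.09 and 6.28, and its call was lost without duct replicate 2 (-1.37), while another probe gave -1.46. The biliary list had a median change of 0.79, beside -0.03 over all genes, and Agilent's log ratio called 4 of its members higher in place of 11.

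Genes of other cell types of the liver were lower in EM organoids. Of 22 genes of stellate cells, fibroblasts and their matrix, 21 fell in EM organoids and none rose. All 22 were well above background on both duct arrays, and 12 and 5 of them on the EM arrays. Their median level was -3.96 and -3.92 in EM organoids and 1.02 and 0.82 in duct cells. In a bulk sample fewer cells of a type and less RNA per cell cannot be told apart. Lum, the collagen-binding proteoglycan lumican (chromosome 10, 97035210 to 97035269), read 5.72 and 7.84 in duct cells and was above background on no EM array, where the probe read -3.02 and -2.61. It was at least 692-fold lower in EM organoids (adjusted p = 3.26e-10). A bound of this kind is taken on the Cy3 signal normalized within and between arrays, not on the ratio to the reference. It sets the bright group's mean signal against that of the dim group. A dim probe counts at its own signal or, where that is lower, at the lowest signal well above background on its array. The bound depends on this normalization, so it is not a strict minimum. Without dye swaps it is open to dye bias, and where it lay above the change in the ratio the log2 change is given in its place. Dcn, the proteoglycan decorin, read -6.33 and -6.35 against 3.71 and 5.47 and fell by 10.93 on the log2 scale (SE 0.55, adjusted p = 5.40e-11), with EM signal above background on 1 array. Col1a2, a chain of collagen I, read -7.02 and -8.32 in EM organoids and 0.60 on duct replicate 2, while replicate 1 was left out as an outlier spot, so it fell by 8.27 on the log2 scale with 1 duct array behind the value. Pdgfrb, the receptor that marks pericytes and stellate cells, was at least 73.2-fold lower. Lrat, the enzyme by which stellate cells store retinol, read 1.02 and 0.76 in duct cells and was above background on no EM array. Its change of -0.71 was not called.

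Of 18 endothelial genes 15 fell and none rose (median -4.51). They were above background for 18 and 17 members on the duct arrays and for 8 and 2 on the EM arrays. Vwf, the von Willebrand clotting factor of endothelium, read -1.0 and -1.19 in EM organoids and 3.89 and 5.55 in duct cells. Kdr, the main receptor for the growth factor VEGF, was above background on no EM array and read 3.19 and 6.06 in duct cells (-4.75 ± 1.12). Flt1, another VEGF receptor, read -4.09 and -3.28 against 2.33 and 4.07 and fell by 6.88 (SE 0.90, adjusted p = 4.69e-06), while a second probe gave -3.43. Clec4g, a lectin of liver sinusoids, was above background on no EM array and fell by 6.33 (SE 0.99) by its brightest probe, but another probe gave -0.17. Ptprb, an endothelial phosphatase, was above background on no EM array, fell by 5.93 (SE 1.27) by its brightest probe and read 0.05 as the median of its probes. Duct replicate 2 read above replicate 1 for 15 of 18 endothelial genes, with a median gap of 1.57, beside 0.29 over all genes called lower. The median change of the list was -3.43 without duct replicate 2.

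Of 18 macrophage genes 10 fell and none rose (median -1.94), with 17 and 17 above background on the duct arrays and 9 and 2 on the EM arrays. Mrc1, the mannose receptor, read 3.05 and 4.91 in duct cells and was at least 19.2-fold lower in EM organoids. Fcer1g, a signalling chain of Fc receptors, read -4.47 and -4.61 against -1.05 and -0.36 and fell by 3.84 (SE 0.38, adjusted p = 1.34e-07). Lyz2, the lysozyme of myeloid cells, fell by 7.28 by its brightest probe and by 1.07 by another. Clec4f, a lectin of Kupffer cells, read 0.78 and 1.03 in duct cells and was not called. Of 14 lymphocyte genes 6 fell, 42.9% beside 14.0% of all genes (median -0.56). Among them were the B cell genes Ms4a1, at least 2.72-fold lower, and Cd79b, which fell by 2.44. Hbb-bt, a globin of red blood cells, read 5.83 and 8.65 in duct cells and was above background on no EM array. It fell by 6.76 (SE 1.25), where 3 other probes gave -5.34, -5.03 and -4.59. Of 5 mesothelial genes 4 fell, led by Wt1 (at least 4.16-fold lower), and Msln rose by 1.55. The 4 falls became 2 without EM replicate 1, and Msln was not called without duct replicate 1 (1.24). Upk1b, a uroplakin, lost its call without EM replicate 1 (-0.54) or either duct replicate.

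Over the whole array, 21047 genes were tested and 5602 (26.6%) were called, at an adjusted p under 0.05 and a change of at least 1 log2 unit. EM organoids were higher for 2659 and lower for 2943. Of the genes called, 4620 were measured in both groups, 864 have only a bound because the dimmer group was above background on no array, and 118 were above background on no array of the higher group. The arrays of the groups did not overlap for 5424 of the called genes, while 30.0% of all genes tested were higher and 34.2% lower with no overlap. On the Cy3 signal alone the median of all genes moved to -0.98, and 25.4% of the called genes were higher in place of 47.5%.

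**Figure D2:**
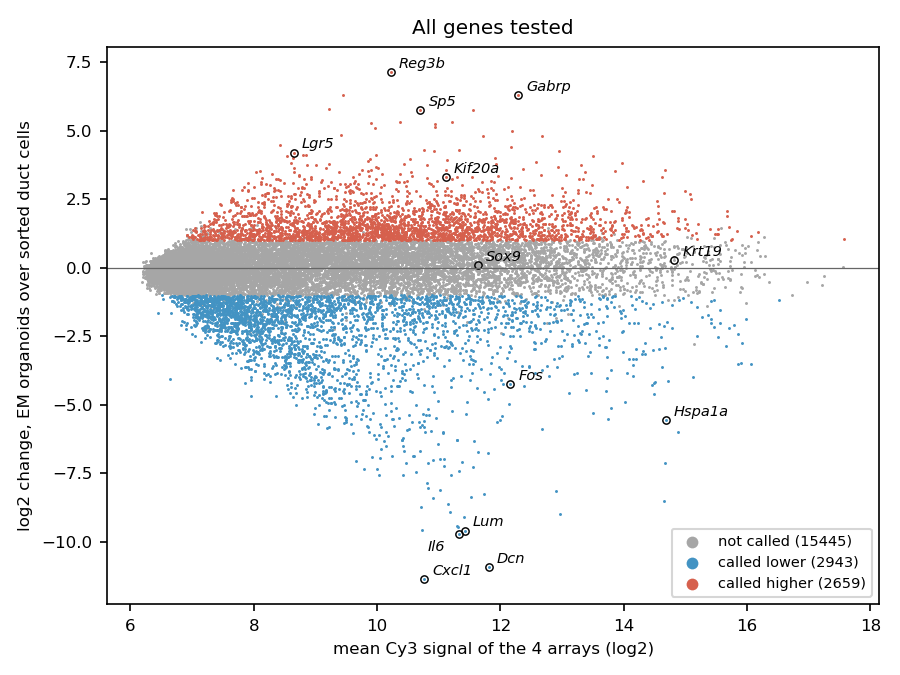
Log2 change of EM organoids over sorted duct cells (y axis) against the mean Cy3 signal of the 4 arrays on a log2 scale (x axis) for 21047 genes, red for 2659 called higher, blue for 2943 called lower and grey for the rest. Krt19 and Sox9 lie near 0 at high signal, the falls of Lum, Dcn, Il6 and Cxcl1 reach below -9, and the rises of Reg3b and Gabrp are above 6.

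Among genes with a value on all 4 arrays and measured on both sides, the 8 largest rises were Gabrp, Sp5, Aqp5, Tmprss4, Ltf, Cldn8, Cldn2 and Prom1. Gabrp, a subunit of the GABA-A receptor found in several epithelia (chromosome 11, 33452049 to 33452108), read 7.64 and 9.29 in EM organoids and 1.29 and 3.02 in duct cells, a rise of 6.31 ± 0.43 (adjusted p = 1.33e-09). Aqp5, a water channel of glands, read 3.94 and 4.55 against -1.86 and -1.15 and rose by 5.75 ± 0.54. Tmprss4, a membrane-bound serine protease, rose by 5.32 ± 0.51. Ltf, the iron-binding antimicrobial protein lactoferrin, read 5.15 and 5.68 against 0.17 and 0.01 and rose by 5.32 ± 0.59. Aqp5 and Ltf were above background on 1 duct array each. Both these rises and the falls below were taken only from called genes whose EM and duct arrays did not overlap. They also had to be well above background on both arrays of the higher group.

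Among genes with a value on all 4 arrays, the largest falls measured on both sides were Dcn and then Pakap, a gene of an anchoring protein for protein kinase A, at -9.45 ± 0.81, where 2 other probes gave -4.05 and -2.41. Selenop, the plasma selenium carrier, read -3.99 and -3.58 in EM organoids and 4.57 and 5.83 in duct cells and fell by 8.98 (SE 0.52, adjusted p = 1.38e-10). Mgp, an inhibitor of matrix calcification, fell by 8.39 (SE 0.42), and the lipid carrier Apoe fell by 8.14 (SE 0.56). Serpina3g, a protease inhibitor, fell by 8.11, Slc43a3, a membrane transporter, fell by 7.87, and Ehd3, a protein of endocytic traffic, fell by 7.55. Of these 8 genes only Selenop was above background on both EM arrays. Fabp4, a fatty acid carrier of fat cells, capillaries and macrophages, was at least 533-fold lower by its brightest probe, and 2 other probes gave -7.80 and -2.74.

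**Figure D3:**
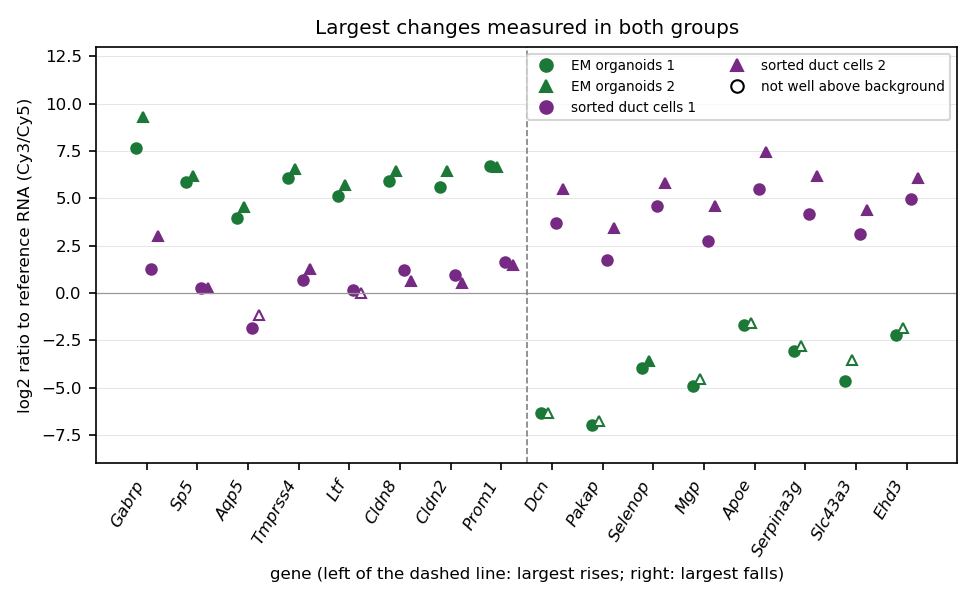
Log2 ratio to the reference RNA (y axis) on each of the 4 arrays for the 8 largest rises (left of the dashed line) and the 8 largest falls (right) measured in both groups, among genes with a value on all 4 arrays, with colours and symbols as for the key genes and open symbols for signals not well above background. Green and purple do not overlap for any of the 16 genes, which was a condition of their choice. Of the 8 genes that fell, 7 are open on EM replicate 2.

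Wnt target genes divided. Of 19 tested, 7 rose and 4 fell in EM organoids, with a median of 0.66. The risers were Sp5, Lgr5, Rnf43, Axin2, Znrf3, the receptor Ephb2 (1.65) and the cyclin Ccnd1 (1.41), which Wnt signalling is known to induce in intestinal crypts. Sp5, a zinc-finger repressor that is a direct Wnt target (chromosome 2, 70315688 to 70315747), read 5.88 and 6.18 in EM organoids and 0.26 and 0.28 in duct cells and rose by 5.76 ± 0.32 (adjusted p = 1.04e-10). Lgr5 (chromosome 10, 114888847 to 114888906) read 3.79 and 4.52 in EM organoids. It was above background on no duct array, where the probe read 0.01 and -0.12, and rose by 4.21 ± 0.37 in EM organoids (adjusted p = 2.99e-08). Axin2, a scaffold of the complex that destroys beta-catenin, read 2.30 and 2.44 against -0.03 and -0.17 and was above background on no duct array. It rose by 2.47 ± 0.23, a call lost on the Cy3 signal alone (0.57). Rnf43, a ubiquitin ligase that removes Wnt receptors from the membrane, read 2.87 and 3.07 against -0.11 and -0.20 and rose by 3.13 ± 0.32. Its relative Znrf3 rose by 2.25.

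The falls in the same list were of Apcdd1 and Bambi, membrane inhibitors of Wnt and of TGF-beta family signalling, and of Nkd1, an inhibitor that binds Dishevelled. Apcdd1 read -3.99 and -3.43 in EM organoids against -0.39 and -0.27 and fell by 3.38 (SE 0.35), and Bambi read -0.08 and 0.15 against 2.80 and 2.92 and fell by 2.82 (SE 0.39). Nkd1 fell by 4.61 by its brightest probe and by 0.61 by another. The fourth, the transcription factor Lef1, was above background on none of the 4 arrays. Apcdd1, Bambi and Nkd1 were above background on 1 EM array each, and stellate and endothelial lists fell in the same comparison. Their part in the falls was not tested.

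The promoter of Sp5 is shown because it is the Wnt target that rose most. These are 170 bases before its start at chr2:70474753-70474922 (plus strand), from RefSeq on GRCm38.p6, with a match to the TCF site CTTTGAT, searched on both strands, in capitals 104 bases before the start.
Sp5: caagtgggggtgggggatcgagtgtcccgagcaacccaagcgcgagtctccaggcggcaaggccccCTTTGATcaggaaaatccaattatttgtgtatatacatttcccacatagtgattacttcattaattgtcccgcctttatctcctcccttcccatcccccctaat
Of the 19 Wnt target genes 12 had a promoter window of 300 bases (250 before the start and 50 after) in the table. The letters CTTTGAT stood in 2 of them, Sp5 and Tnfrsf19, or 16.7%, beside 4.3% of all 27025 genes with a window. Tnfrsf19, a receptor of the TNF family, read 0.39 and 0.65 in EM organoids and 0.26 and 0.39 in duct cells and was not called.

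Cell cycle genes rose together. Of 35 genes of mitosis 21 rose and none fell (median 1.42), and of 28 genes of DNA replication 17 rose and none fell (median 1.08), beside 12.6% of all genes called higher. Mki67, the nuclear antigen of dividing cells, read -1.74 and -1.98 in EM organoids and -4.42 and -3.82 in duct cells and rose by 2.26 ± 0.31 (adjusted p = 1.25e-05). Another probe gave 1.02. All these ratios are below 0, so Mki67 read below the reference RNA in both groups. The ratios are normalized within arrays and, without dye swaps, are open to dye bias. Kif20a, a kinesin of the late spindle, read -0.07 and 0.16 against -3.27 and -3.30 and rose by 3.33 ± 0.28 (adjusted p = 1.59e-08). Prc1, which bundles the microtubules of the central spindle, read -0.25 and -0.08 against -3.68 and -3.22 and rose by 3.28 ± 0.31. Ccnb2, a cyclin that drives entry into mitosis, read -0.83 and -0.25 against -3.52 and -3.23 and rose by 2.83 ± 0.28. The EM arrays lay above the duct arrays in each of these genes, as for 30.0% of all genes tested. Kif20a, Prc1 and Ccnb2 were named as the list's largest rises, which favours such a gap. Of the 35 mitosis genes, 35 and 28 were above background on the EM arrays and 31 and 16 on the duct arrays.

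Among the replication genes, Tyms, the thymidylate synthase that makes a building block of DNA, read -0.56 and -0.28 in EM organoids and -2.96 and -3.03 in duct cells and rose by 2.57 ± 0.22 (adjusted p = 2.73e-08). Mcm7, a subunit of the replicative helicase, read 0.10 and 0.23 against -1.86 and -2.10 and rose by 2.15 ± 0.23. Mcm6, another subunit, rose by 3.85 ± 0.36, a value that rests on duct replicate 2 alone because the spot of replicate 1 was an outlier. Pcna, the sliding clamp of the polymerases, was not called (-0.97).

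The promoters of Ccnb2 and Prc1 are shown because these genes were among the largest rises of the mitosis list and hold both motifs searched in it. Other mitosis genes called higher, such as Cdc20, hold both motifs too. The 170 bases before each start are at chr9:70421555-70421724 (minus strand) and chr7:80294306-80294475 (plus strand), with TTTGAA (the cell cycle homology region, CHR) and CCAAT, on either strand, in capitals.
Ccnb2: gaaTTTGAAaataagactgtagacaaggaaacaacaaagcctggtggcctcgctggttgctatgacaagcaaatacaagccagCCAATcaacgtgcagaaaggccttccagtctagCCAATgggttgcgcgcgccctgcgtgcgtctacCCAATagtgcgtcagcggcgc
Prc1: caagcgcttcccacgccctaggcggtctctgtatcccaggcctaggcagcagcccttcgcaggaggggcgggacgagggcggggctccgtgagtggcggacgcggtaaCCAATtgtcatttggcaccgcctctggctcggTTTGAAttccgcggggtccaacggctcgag
Ccnb2 held CCAAT at 87, 54 and 21 bases before the start, evenly spaced, and TTTGAA at 167. Prc1 held CCAAT at 62 and TTTGAA at 30 bases before the start. Of the 35 mitosis genes 30 had a window. TTTGAA stood in 70.0% of these and CCAAT in 73.3%, beside 20.2% and 41.1% of all genes with a window. Of the 21 mitosis genes that held TTTGAA 11 were called, and of the 22 that held CCAAT 14 were called.

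The window of Mcm7 at chr5:138171884-138172053 (minus strand) is shown for the replication genes, with the E2F site TTTCCCGC, here on the opposite strand, in capitals.
Mcm7: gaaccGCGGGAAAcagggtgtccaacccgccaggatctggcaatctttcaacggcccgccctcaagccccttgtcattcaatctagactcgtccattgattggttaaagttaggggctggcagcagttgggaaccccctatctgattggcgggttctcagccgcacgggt
TTTCCCGC or TTTGGCGC stood in 8 of 24 replication genes with a window (33.3%), beside 1.8% of all genes, and 4 of these 8 were called. CCAAT stood in 66.7% of the replication genes with a window. A match is a description of the letters, not a bound site.

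Inhibitors of the cell cycle and genes of the DNA damage response moved mostly the other way, with 7 of 14 lower and 2 higher (median -0.95, called in either direction for 26.6% of all genes). Gadd45g and Gadd45b, stress-induced growth arrest genes, read -1.68 and -1.63 against 2.17 and 3.75, and -1.16 and -0.72 against 2.94 and 3.07. They fell by 4.62 (SE 0.44, adjusted p = 1.03e-07) and by 3.95 (SE 0.42). Cdkn1a, the p21 inhibitor of cyclin-dependent kinases, read -0.61 and -0.50 against 1.34 and 1.69 and fell by 2.07 (SE 0.38, adjusted p = 0.000216). Cdkn2b, the p15 inhibitor, went the opposite way, from -1.25 and -0.90 in duct cells to 2.37 and 2.14 in EM organoids (3.33 ± 0.26, adjusted p = 7.18e-09). Ccng1, a cyclin induced by p53, rose by 2.28 ± 0.37. Of 20 genes of ribosome biogenesis 3 rose (15%, near the 12.6% of all genes) and 1 fell (5%, beside 14.0%), with a median of 0.41. Bop1, a processing factor of ribosomal RNA, rose by 1.89 ± 0.22, and Nop58, a core protein of small nucleolar RNPs, fell by 1.68 (SE 0.22).

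Immediate early genes, the transcription factors and regulators switched on within minutes by growth factors, stress or handling of tissue, were lower in EM organoids than in fresh ducts. Of 25 tested, 22 fell and none rose (median -3.25), beside 14.0% of all genes called lower. Fos, a subunit of the AP-1 dimer (chromosome 12, 86817900 to 86817959), read -0.46 and -1.22 in EM organoids and 3.25 and 3.53 in duct cells and fell by 4.23 (SE 0.97, adjusted p = 0.00157). Egr2, a zinc-finger factor, read -3.94 and -3.11 against 2.07 and 2.82 and fell by 5.98 (SE 0.87, adjusted p = 1.57e-05). Its relative Egr1 read -2.89 and -2.60 against 1.73 and 3.35 and fell by 5.29 (SE 1.02). Klf6, a Krüppel-like factor, read -1.05 and -0.70 against 4.52 and 3.94 and fell by 5.10 (SE 0.58, adjusted p = 8.48e-07). In each of these genes the duct arrays lay above the EM arrays, as for 34.2% of all genes tested. Egr2, Egr1 and Klf6 were named as the list's largest falls, which favours such a gap.

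Heat shock genes fell in part, with 9 of 18 lower and none higher (50% lower beside 14.0% of all genes, median -1.97). Hspa1a, the inducible Hsp70 chaperone (chromosome 17, 35106766 to 35106825), read 2.11 and 2.44 in EM organoids and 6.82 and 8.88 in duct cells and fell by 5.57 (SE 0.93, adjusted p = 7.11e-05). Dnajb4, a co-chaperone, read -1.25 and -0.45 against 2.32 and 2.70 and fell by 3.36 (SE 0.32). The chaperones Hspa8 (-0.65), which is constitutive, and Hspd1 (0.95), which is mitochondrial, were not called. Serpinh1, the collagen chaperone, fell by 8.73, a value that rests on duct replicate 2 alone and moved with the collagen genes. On Cy3 alone 3 heat shock genes were called higher and 7 lower, where 3437 of all 21047 genes were called higher and 10091 lower.

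The windows of Egr2 at chr10:67537396-67537565 (plus strand) and Hspa1a at chr17:34972157-34972326 (minus strand) are shown as the immediate early gene and the heat shock gene measured on both sides with a large fall and a match. Capitals mark the CArG box, the site of serum response factor, in Egr2, and the heat shock element, TTCNNGAA or GAANNTTC, in Hspa1a.
Egr2: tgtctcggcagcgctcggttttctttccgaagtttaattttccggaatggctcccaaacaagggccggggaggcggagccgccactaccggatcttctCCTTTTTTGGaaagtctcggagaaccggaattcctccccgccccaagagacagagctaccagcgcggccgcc
Hspa1a: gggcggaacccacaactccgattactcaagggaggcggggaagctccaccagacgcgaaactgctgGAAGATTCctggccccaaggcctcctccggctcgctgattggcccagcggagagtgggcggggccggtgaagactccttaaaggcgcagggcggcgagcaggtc
Of 21 immediate early genes with a window, 2 (Egr2 and Zfp36) held a CArG box and 3 (Btg2, Dusp1 and Maff) held the cAMP response element TGACGTCA. That is 9.5% and 14.3%, beside 1.8% and 2.0% of all genes. Of 13 heat shock genes with a window 10 held a heat shock element, 76.9% beside 17% of all genes. Of those 10, 6 were called.

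Cytokine genes moved both ways. Of 20 tested, 12 fell and 5 rose (median -2.25), and the falls included some of the largest on the array. Il6, the interleukin of the acute phase response (chromosome 5, 30346362 to 30346421), read 6.18 and 8.68 in duct cells. It was above background on no EM array (-2.45 and -2.12) and was at least 579-fold lower in EM organoids (adjusted p = 1.91e-10). Cxcl1, a chemokine for neutrophils, read 5.21 and 6.87 in duct cells and was at least 287-fold lower, and Cxcl10, an interferon-induced chemokine for T cells, read 5.45 and 6.46 and was at least 330-fold lower. Neither was above background on an EM array. Duct replicate 2 read above replicate 1 for 18 of the 19 cytokine genes read on both arrays, with a median gap of 1.66, beside 0.29 over all genes called lower.

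The cytokine genes that rose were chemokines and growth factors known from epithelium. Cxcl5, another chemokine for neutrophils, read 6.05 and 6.31 in EM organoids and 2.43 and 4.32 in duct cells and rose by 2.81 ± 0.59 (adjusted p = 0.000716), or by 1.86 without duct replicate 1. Ccl20, which draws dendritic and T helper cells, read 2.74 and 2.93 against 0.32 and 0.44 and rose by 2.46 ± 0.36, a call lost on Cy3 alone (0.40). Csf2 and Csf3, colony-stimulating factors, rose by 1.98 and 1.46. The fifth, Ccl28, rested on EM replicate 2 and is described with the gaps between arrays.

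Inhibitors and targets of NF-kappa B were lower for 10 of 11 genes and higher for none (median -2.57). Nfkbia, the inhibitor that holds NF-kappa B in the cytoplasm, read -0.38 and -0.18 in EM organoids and 3.12 and 4.56 in duct cells and fell by 4.12 (SE 0.47, adjusted p = 2.02e-06). Socs3, a feedback inhibitor of interleukin 6 signalling, read -1.0 and -0.98 against 1.67 and 3.42 and fell by 3.53 (SE 0.38). Nfkbiz, a nuclear member of the same inhibitor family, read 0.88 and 0.47 against 3.06 and 4.86 and fell by 3.29 (SE 0.79). All 11 genes were above background on all 4 arrays, so these falls are measured in both groups. Without duct replicate 2 the count was 6, and Nfkbiz lost its call (-2.38).

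Interferon response genes fell for 14 of 15 with none higher (median -3.90). Isg15, a ubiquitin-like protein, read -4.00 and -3.65 in EM organoids and 1.95 and 2.67 in duct cells and fell by 6.14 (SE 0.55, adjusted p = 4.63e-08). Rsad2, the antiviral enzyme viperin, read 1.78 and 3.23 in duct cells and was at least 31.2-fold lower by its brightest probe, where 2 other probes gave -1.52 and -1.20. Gbp2, a guanylate-binding protein, read -2.11 and -2.05 against 2.07 and 2.97 and fell by 4.60 (SE 0.43). Of 7 genes of MHC class II, which presents antigen on macrophages, dendritic and B cells, 6 fell and none rose (median -3.14). Cd74, the invariant chain, read -1.83 and -2.83 against 1.46 and 2.50 and fell by 4.31 (SE 0.56), and H2-Ab1, above background on no EM array, fell by 5.24 (SE 0.80). Other probes of H2-Ab1 gave -3.21, -1.48 and -0.94.

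The windows of Cxcl1 at chr5:90891075-90891244 (plus strand), Il6 at chr5:30012944-30013113 (plus strand), Isg15 at chr4:156200819-156200988 (minus strand) and Rsad2 at chr12:26456453-26456622 (minus strand) are shown as the pair of cytokine genes and the pair of interferon response genes with the lowest log2 change among those with a match. Capitals mark the kappa B site in Cxcl1 and Il6 and the interferon response element, on either strand, in Isg15 and Rsad2.
Cxcl1: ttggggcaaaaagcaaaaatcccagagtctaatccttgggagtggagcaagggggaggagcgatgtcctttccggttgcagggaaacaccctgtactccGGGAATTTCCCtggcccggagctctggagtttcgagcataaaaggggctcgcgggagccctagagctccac
Il6: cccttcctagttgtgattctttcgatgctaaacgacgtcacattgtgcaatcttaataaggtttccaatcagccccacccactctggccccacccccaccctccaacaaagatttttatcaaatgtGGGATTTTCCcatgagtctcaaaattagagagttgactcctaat
Isg15: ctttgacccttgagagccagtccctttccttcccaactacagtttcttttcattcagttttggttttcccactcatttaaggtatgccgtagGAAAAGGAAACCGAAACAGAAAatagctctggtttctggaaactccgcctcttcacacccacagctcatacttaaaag
Rsad2: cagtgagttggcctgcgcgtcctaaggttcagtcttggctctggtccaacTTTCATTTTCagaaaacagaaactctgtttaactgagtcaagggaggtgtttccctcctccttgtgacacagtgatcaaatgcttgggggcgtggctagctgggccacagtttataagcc
Cxcl1 held 2 overlapping matches that start 71 and 70 bases before the start of the gene, and Il6 held a match 44 bases before it. Isg15 held 3 matches that overlap, at 78, 72 and 66 bases. A kappa B site stood in 6 of 16 cytokine genes with a window (37.5%) and in 4 of 7 NF-kappa B feedback genes (57.1%), beside 5.1% of all genes. Of these 6 cytokine genes 4 were called, Cxcl1, Cxcl10 and Il6 lower and Ccl20 higher. Of the 4 feedback genes 3 were called. The interferon response element stood in 6 of 10 interferon response genes with a window, all 6 called lower, beside 4.0% of all genes.

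The stellate, endothelial and macrophage genes given above fell in the same comparison as the immediate early, heat shock, cytokine, NF-kappa B, interferon and MHC class II genes. Those cell types are known to express many of these genes too. Their part in these falls was not tested.

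**Figure D4:**
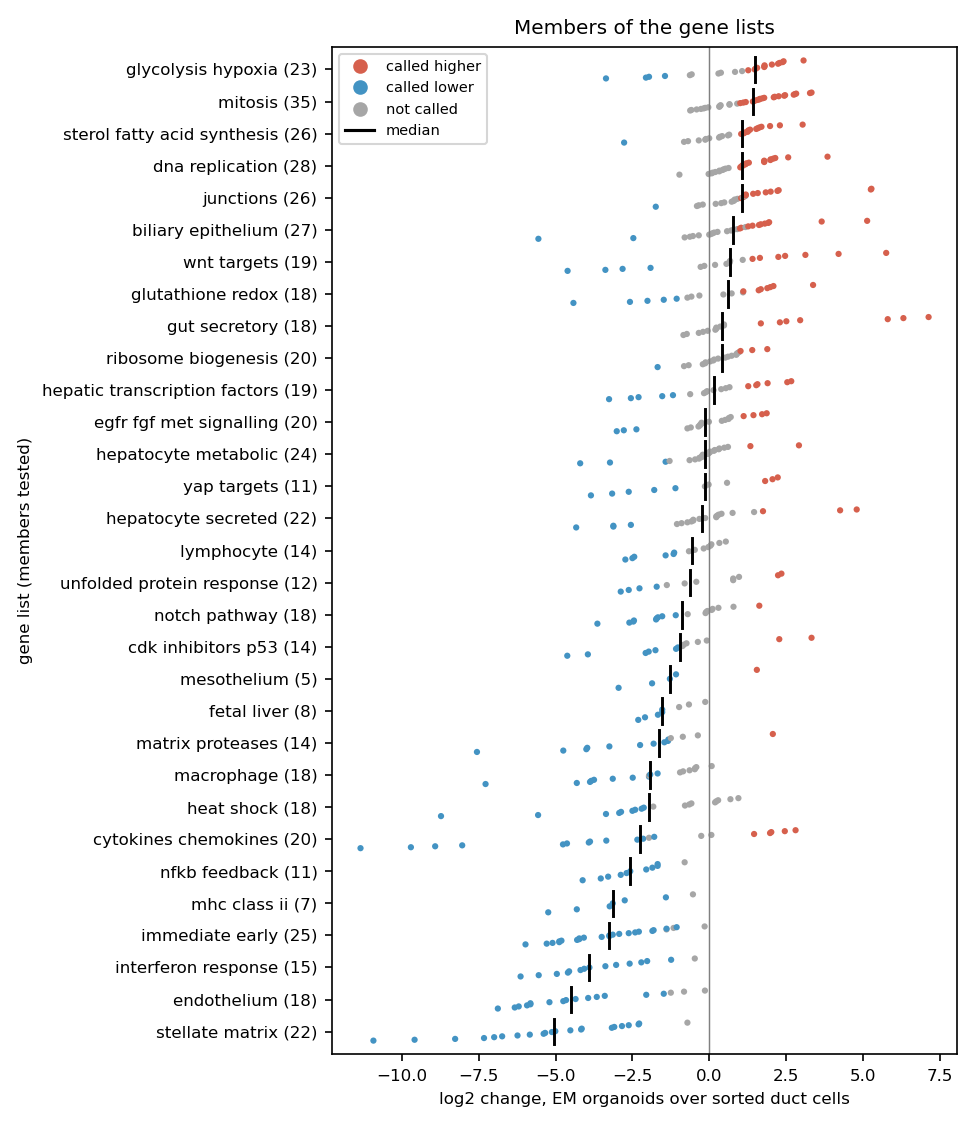
Log2 change of EM organoids over sorted duct cells (x axis) for the tested members of 31 gene lists (y axis, number tested in brackets), red for called higher, blue for called lower, grey for not called, with a black bar at the median of each list. Medians run from -5.06 for stellate and matrix genes to 1.48 for glycolysis and hypoxia genes, and mitosis, DNA replication, immediate early, interferon and endothelial members are called in 1 direction only.

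Genes of the Notch pathway, which directs bile duct formation, were lower for 9 of 18 and higher for 1 (median -0.89). These are 50% and 5.56%, beside 14.0% and 12.6% of all genes. Hey1, a transcriptional target of Notch found in endothelium and other cells, read -2.27 and -2.10 in EM organoids and 1.37 and 1.54 in duct cells and fell by 3.64 (SE 0.42, adjusted p = 1.00e-06). Notch3, a receptor of pericytes and smooth muscle, read -1.55 and -0.88 against 0.84 and 1.67 and fell by 2.47 (SE 0.31). Mfng, a glycosyltransferase that modifies Notch receptors, read -2.55 and -1.02 against 1.01 and 0.61 and fell by 2.60 (SE 0.43). The ligand Jag1, which cholangiocytes carry, read 1.96 and 1.41 against 2.02 and 1.46, and the target Hes1 read 1.73 and 1.99 against 2.41 and 2.70. Neither was called. The ligand Dll1 rose by 1.63 ± 0.44, a call lost without EM replicate 1 (1.43) or duct replicate 1 (1.17).

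YAP targets, which report mechanical and growth signals, moved both ways, with 3 of 11 higher and 5 lower. That is 27.3% and 45.5%, beside 12.6% and 14.0% of all genes. F3, the tissue factor that starts clotting, read 0.10 and 0.57 in EM organoids and 3.89 and 4.47 in duct cells and fell by 3.85 (SE 0.25, adjusted p = 5.55e-10). Ccn1, a matricellular protein that also belongs to the immediate early list, fell by 2.62 (SE 0.34). Ccn2, its close relative, read 3.16 and 3.65 in EM organoids against 1.65 and 1.51 and rose by 1.82 ± 0.68 (adjusted p = 0.0414), a call lost when any of the 4 arrays was left out (1.58 to 2.07). Ajuba, a scaffold that holds back the Hippo kinases, rose by 2.23 ± 0.30, and Nuak2, a kinase, by 2.06 ± 0.38.

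Among 20 genes of EGF, FGF and HGF signalling, 4 rose and 3 fell, 20% and 15% beside 12.6% and 14.0% of all genes, shares near the background. The EGF receptor relatives Erbb3 and Erbb2 rose, Erbb2 from 0.02 and -0.18 in duct cells to 1.42 and 1.30 in EM organoids (1.44 ± 0.19, adjusted p = 4.35e-06). Erbb3 rose by 1.87 ± 0.29 by its brightest probe, while 3 other probes gave 0.98, 0.50 and 0.47. Spry2, a feedback inhibitor of receptor tyrosine kinases, read -1.4 and -1.48 against 1.04 and 1.64 and fell by 2.78 (SE 0.26), with another probe at -0.86. Hbegf, an EGF receptor ligand, read 0.74 and 1.33 against 2.82 and 4.0 and fell by 2.37 (SE 0.54). Hgf, a growth factor made by stellate cells and endothelium, was above background on no EM array and at least 3.99-fold lower, with a change of -3.01 that was -1.66 without duct replicate 2. Other Hgf probes gave -1.98 and -0.50.

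Genes of cell junctions rose for 12 of 26 and fell for 1 (median 1.06), 46.2% and 3.85% beside 12.6% and 14.0% of all genes. Cldn8 and Cldn2, claudins that set the ion permeability of tight junctions, read 5.91 and 6.46 against 1.19 and 0.61, and 5.59 and 6.42 against 0.96 and 0.52. They rose by 5.28 ± 0.36 (adjusted p = 1.28e-09) and 5.26 ± 0.37 (adjusted p = 2.02e-09). Tjp3, a scaffold of tight junctions, read 3.04 and 3.13 against 0.88 and 0.77 and rose by 2.26 ± 0.31. Gja1, the gap junction protein connexin 43 of fibroblasts and endothelium, fell by 1.74 (SE 0.21). Agilent's log ratio called 5 junction genes higher and Cy3 alone called 7.

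Of 18 secretory and antimicrobial genes better known from the intestine, 7 rose and none fell, a share of 38.9% beside 12.6% of all genes, and the median was 0.42 and turned to -1.02 on Cy3 alone, where the median of all genes was -0.98. The Reg genes, secreted lectins that act against bacteria and are induced in inflamed gut and pancreas, were above background on both EM arrays and on no duct array. Reg3b (chromosome 6, 78323323 to 78323382) read 6.46 and 7.93 against 0.00 and 0.10 and rose by 7.14 ± 0.74 (adjusted p = 2.68e-07). Reg3g read 5.54 and 6.06 and was at least 44.6-fold higher. Reg1 read 5.52 and 7.24 and was at least 44.4-fold higher (adjusted p = 0.00146), a call lost with array weights. The goblet cell genes Muc5ac (0.23), Tff3 (-0.20) and Agr2 (-0.84), were not called. Mab21l4, outside the lists and above background on no duct array, rose by 4.12 ± 0.42.

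Matrix proteases and their inhibitors were lower for 10 of 14 genes and higher for 1 (median -1.64). The shares were 71.4% and 7.14%, beside 14.0% and 12.6% of all genes. Mmp3, stromelysin, was above background on no EM array and at least 98.5-fold lower. Mmp2, a gelatinase of fibroblasts, read -3.70 and -3.44 against 1.5 and 0.85 and fell by 4.75 (SE 0.23, adjusted p = 1.85e-11). Timp2, a protease inhibitor, fell by 4.0 on the strength of duct replicate 2 alone. Mmp7, matrilysin, a protease of epithelium, read 4.84 and 4.91 in EM organoids against 2.27 and 3.34 and rose by 2.07 ± 0.45, but read -0.76 on Agilent's log ratio.

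Hepatocyte genes were called at shares near those of all genes. Of 22 plasma proteins 3 rose and 4 fell (median -0.22), and of 24 metabolic genes 2 rose and 3 fell (median -0.13). On Cy3 alone 13 and 18 of them fell, where 10091 of all 21047 genes were called lower and the median of all genes was -0.98. Cps1, which feeds ammonia into the urea cycle, was above background on none of the 4 arrays and read 9.48 ± 1.46 (SD, n = 2) in isolated hepatocytes. Serpinc1, antithrombin, was also above background on none. Alb, albumin, read 1.59 and 1.24 in EM organoids and 3.75 and 5.34 in duct cells and fell by 3.12 (SE 0.95, adjusted p = 0.012), a call lost without EM replicate 2 or duct replicate 2. The Alb probe separated tissues poorly, at 3.91 ± 0.08 (SD, n = 2) in adult liver and 3.51 ± 0.49 (SD, n = 3) in muscle. Fgg, a fibrinogen chain, read 1.56 and 1.67 against 4.98 and 6.90 and fell by 4.33 (SE 1.14), a call lost without duct replicate 2 (-3.36). Hp, the haemoglobin-binding protein haptoglobin, went the other way, from -1.05 and -0.77 in duct cells to 3.68 and 4.11 in EM organoids (4.80 ± 0.54, adjusted p = 7.20e-07). Trf, transferrin, the iron carrier of plasma, read 5.58 and 6.44 against 2.09 and 1.4 and rose by 4.26 ± 0.76, a call lost on Agilent's log ratio (2.25).

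Transcription factors of liver epithelium moved both ways, with 6 of 19 higher and 5 lower, 31.6% and 26.3% beside 12.6% and 14.0% of all genes. The median was 0.14, and -0.88 and -0.99 on Agilent's log ratio and on Cy3 alone, where the medians of all genes were -0.12 and -0.98. The pioneer factor Foxa2 read 4.48 and 5.40 against 2.16 and 2.64 and rose by 2.54 ± 0.52. Agilent's log ratio called none of the 19 higher. Tbx3, a repressor of the fetal and adult liver, read -2.93 and -2.84 against -0.25 and 0.99 and fell by 3.26 (SE 0.35, adjusted p = 4.43e-07). Nr1h4, the bile acid receptor FXR, read -0.97 and -1.16 against 1.22 and 1.74 and fell by 2.55 (SE 0.40). Of 8 genes of fetal liver 5 fell and none rose, and 4 of the 5 were above background on a duct array. Among them were Dlk1, a membrane protein of hepatoblasts and stromal cells (-2.09 ± 0.36), and Hmga2, a chromatin protein of growing tissue (-2.31 ± 0.45). Hmga2 was above background only on replicate 1 of each group. The falls numbered 3 on Agilent's log ratio and 1 with quantile normalization. They numbered 2 where probes had to be well above background on both arrays of a group.

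Of 26 genes of sterol and fatty acid synthesis 14 rose and 1 fell (median 1.08), a count that dropped to 7 without EM replicate 1 and to 8 without duct replicate 2. Scd2, a fatty acid desaturase, read 0.70 and 0.20 in EM organoids and -2.65 and -2.55 in duct cells and rose by 3.04 ± 0.33 (adjusted p = 4.87e-07). Dhcr7, which carries out a late step of cholesterol synthesis, rose by 1.98 ± 0.33, with another probe at 1.25. The list's single fall was of Stard4, a sterol carrier, by 2.77 with its brightest probe, where 2 other probes gave -0.06 and -0.28. The sterol response element TCACNCCAC stood in the window of 1 of 17 genes, Hmgcs1, or 5.9% beside 1.4% of all genes.

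Of 23 genes of glycolysis and hypoxia, 13 rose and 4 fell (median 1.48). Pgk1, phosphoglycerate kinase, read -1.08 and -1.27 against -3.71 and -3.48 and rose by 2.42 ± 0.20 (adjusted p = 1.51e-08), and the enolase Eno1 rose by 2.39 ± 0.37. Car9, a carbonic anhydrase induced by low oxygen, read 3.22 and 2.40 against -0.45 and -0.09 and rose by 3.07 ± 0.37. Adm, the peptide adrenomedullin, read -3.28 and -3.22 against -0.37 and 0.59 and fell by 3.36 (SE 0.32), and Vegfa, the endothelial growth factor, read -0.89 and -1.22 against 0.59 and 1.21 and fell by 1.96 (SE 0.24). Other Vegfa probes gave -1.90, -1.16 and -0.59. Hk2, a hexokinase, fell by 2.06, a call lost without duct replicate 2 (-1.0), and read -3.12 without duct replicate 1.

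Of 18 genes of glutathione and redox metabolism 7 rose and 5 fell (median 0.60), 38.9% and 27.8% beside 12.6% and 14.0% of all genes. Gpx2, a glutathione peroxidase of gut epithelium, read 5.80 and 6.33 against 2.29 and 3.08 and rose by 3.38 ± 0.32 (adjusted p = 8.34e-08), a call lost on Agilent's log ratio (1.09). Gsta4, a glutathione transferase, rose by 1.99 ± 0.38. Tkt, the transketolase of the pentose phosphate pathway, rose by 2.09 on the strength of duct replicate 2 alone, with another probe at 1.39. Hmox1, the stress-induced haem oxygenase, read -2.80 and -2.47 against 1.48 and 2.09 and fell by 4.42 (SE 0.44, adjusted p = 1.62e-07), and Nqo1, a quinone reductase, fell by 2.58 (SE 0.30). Of 12 genes of the unfolded protein response 2 rose (16.7%, near the 12.6% of all genes) and 4 fell (33.3%, beside 14.0%). Their median of -0.61 turned to 0.80 on Cy3 alone. Xbp1, a transcription factor of secretory cells, read 3.43 and 2.21 against 0.94 and 0.21 and rose by 2.24 ± 0.34. Ddit3, the stress-induced factor CHOP, read -3.26 and -3.07 against -1.01 and -0.78 and fell by 2.27 (SE 0.21, adjusted p = 8.48e-08).

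Some changes depended on a single array. The largest gaps between the EM arrays among called genes were in Ccl28, an epithelial chemokine, at 0.63 and 3.56, in the lens crystallin Cryga at 0.10 and 2.84, in Tcl1 at 0.23 and 2.74 and in the keratin-associated Krtap31-2 at 0.23 and 2.56. Without EM replicate 2 their changes were 0.56, 0.04, 0.05 and 0.10 and none was called. Large gaps between the duct arrays were in Ccl11, the eosinophil chemokine eotaxin, at 1.89 and 5.84, in the oxysterol hydroxylase Cyp7b1 at 2.27 and 6.16 and in the interferon-induced Gbp5 at 1.67 and 5.36. None of these 3 was above background on an EM array, and they fell by 3.83, 3.81 and 3.71. Without duct replicate 2 their changes were -1.85, -1.86 and -1.87, and Cyp7b1 lost its call.

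Set beside the other groups, with no test, the duct arrays rather than the EM arrays held the extreme levels of several genes. Lum stood at 6.78 ± 1.5 (SD, n = 2) in duct cells, 5.60 ± 1.03 (SD, n = 3) in white adipose tissue, 5.03 ± 0.17 (SD, n = 3) in muscle and 2.32 ± 0.78 (SD, n = 2) in whole liver. Il6 stood at 7.43 ± 1.77 (SD, n = 2) in duct cells and at most at 0.28 ± 1.26 (SD, n = 2) elsewhere, in Lgr5-sorted cells. Fos was 3.39 ± 0.20 (SD, n = 2) in duct cells with means between -4.10 and -0.84 in the remaining groups apart from Lgr5-sorted cells, whose arrays read 4.49 and -0.15. Hspa1a read 8.86 and 3.84 on those arrays. Lgr5 was highest in EM organoids, at 4.15 ± 0.52 (SD, n = 2), with adult liver next at 3.40 ± 0.06 (SD, n = 2), and was above background on neither array of Lgr5-sorted cells. Whole liver, on the slides of the duct arrays, read only 0.44 ± 0.23 (SD, n = 2) for Lgr5. Adult liver replicate 1 shared its scan day with EM replicate 1. The cause of the gap between these liver groups was not tested. Mki67 stood at -1.86 ± 0.17 (SD, n = 2) in EM organoids. Muscle (-0.79 ± 0.05, SD, n = 3), liver 3 days after carbon tetrachloride (-1.02 ± 0.12, SD, n = 2), white adipose tissue (-1.22 ± 0.39, SD, n = 3), Lgr5-sorted cells (-1.42 ± 0.05, SD, n = 2) and the DM organoid (-1.66) read above them, and adult liver read lowest of the groups with a mean, at -5.22 ± 0.22 (SD, n = 2).

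**Figure D5:**
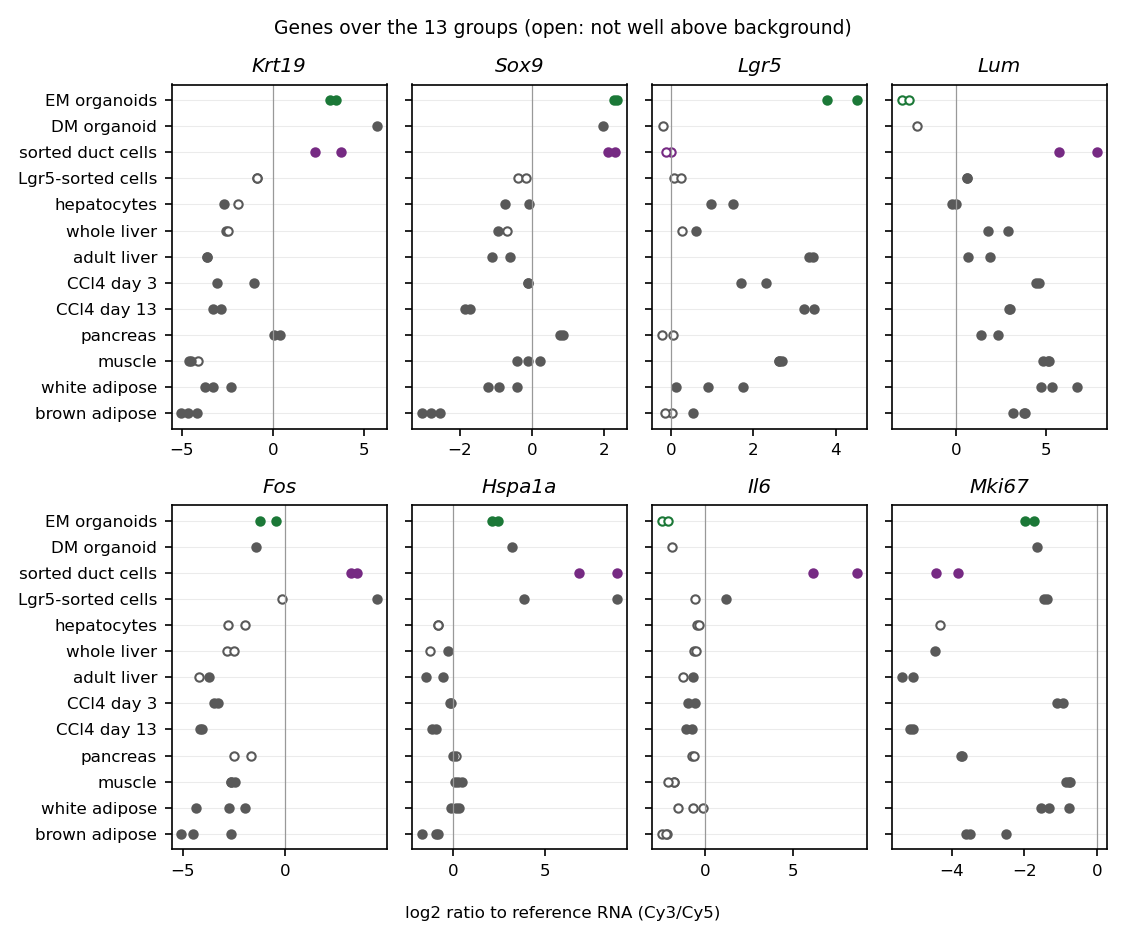
Log2 ratio to the reference RNA (x axes, each panel on its own scale) of 8 genes on every array with a value in the 13 groups (y axis), green for EM organoids, purple for sorted duct cells, grey for the others and open where not well above background. By group mean the duct cells are the highest for Lum and Il6, EM organoids are the highest for Lgr5, and both are high for Krt19 and Sox9.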

How the data were processed

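RNA of the 28 samples was hybridised to 2-colour Agilent arrays, with the sample in Cy3 and a reference RNA in Cy5. Per the file headers, the authors scanned the arrays with Agilent Feature Extraction 10.5.1.1 (8.5.1.1 per the submitters' processing notes) and deposited spot and background intensity values that are not normalized. Per the file headers, the deposited log10 ratio is dye-normalized and runs Cy5 over Cy3, and it served as an alternative with the sign turned. The scanner intensity values were corrected with normexp (offset 50) and normalized by loess within arrays in limma 3.58.1 (R 4.3.3), with 1639 control spots at weight 0 and outlier spots (0.688%) left out, which removes duct replicate 1 from some genes. Probes were kept where 2 or more arrays had a Cy3 signal well above background, and the brightest probe stood for its gene. A single limma fit of 13 group means over 28 arrays gave moderated tests, adjusted by Benjamini-Hochberg over 21047 genes. Called means an adjusted p under 0.05 and a change of at least 1 log2 unit. The probe positions are mm9, per the file headers, and 16786 genes were named by a match in RefSeq.

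In simulated data with 200 genes changed, 28.4%, 97% and 95.5% were recovered at changes of 1, 2 and 3 log2 units, with 4 false calls. The simulation gave all arrays independent noise of each gene's pooled spread and held no effect of slide or scan day. Its false calls therefore do not give their number in these data. A change of 1 log2 unit lies at the fold minimum, which lowers recovery there. The members and the 31 gene lists were chosen with earlier results of these data known. Genes were named by a rule: the largest rises and falls, measured or as a bound, the 3 largest per list and direction, 12 key genes and the largest gaps between arrays. Agr2, Ccnd1, Clec4f, Cps1, Csf2, Csf3, Ephb2, Hes1, Hspa8, Hspd1, Jag1, Kdr, Lef1, Lrat, Muc5ac, Pcna, Pdgfrb, Serpinc1, Tff3, Tnfrsf19, Vwf, Znrf3 and the 2 Y-linked genes stand outside it and were chosen after their values were seen. Promoter windows come from RefSeq (GRCm38.p6). Some genes that the rule names are not reported here.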

Additional observations from a re-analysis of the deposited data

How the results depend on the processing

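EM organoids were higher for 2659 genes and lower for 2943. With 1 array left out the counts ran from 2467 to 2779 higher and from 2525 to 3053 lower. The count of lower genes was 10091 on Cy3 alone, with 3437 higher. Without a fold minimum 4203 were higher and 4097 lower, and with a minimum of 2 log2 units 567 and 1291. Quantile normalization between arrays gave 2845 and 2352, so that 54.7% of called genes were higher in place of 47.5%, and the fold minimum of 2 log2 units gave 30.5%. The replicate block gave 2658 and 2937 and changed no call among the named genes. Deviations of same-numbered arrays correlated at 0.16, and the labels tie no number to a shared animal, culture or day, so with 2 pairs no pairing was shown. Slide and scan day as random blocks gave 2657 and 2621 higher, 2942 and 2908 lower.

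Direction turned for Sox9 at an offset of 10 (-0.25), on Agilent's log ratio (-0.42) and with quantile normalization (-0.28), for Spp1 with quantile normalization (0.14) and for Mmp7 on Agilent's log ratio (-0.76). On Cy3 alone it turned for Ccl28 (-0.30), Cryga (-0.55), Tcl1 (-0.62), Krtap31-2 (-0.71) and Tgfa (-0.11), and with the median of probes for Wdr12 (-0.08) and Ptprb (0.05). Krt19 ran from -0.44 to 0.98 with 1 array left out, and turned only without duct replicate 2. In each case the cause was not tested. Of 2018 called genes with another probe well above background, 1610 had every such probe on the same side. The number of arrays limits the precision, and 3640 genes were well above background on none of the 4 arrays.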
